A study of Mus musculus with 36 samples.

Results

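The circRNAs described here are the catalogued ones, those that the deposited circRNA table lists under a name beginning mmu_circ_, the style of identifier that public catalogues such as circBase give to mouse circRNAs. Of 15690 circRNAs in the table, 1197 had such a name and 14493 were listed without one. From the 1197, those with 0 reads in at least 1 library and 20 or more reads in every other were left out, which removed 15 and left 1182 members. The members were thus chosen by name and by read counts in the same 12 libraries, the counts serving only to remove names that switched between a clear signal and 0. Among the members nearest to this limit, mmu_circ_0000393 had 0 reads in 1 library and a lowest other count of 18, mmu_circ_0001505 a lowest other count of 16 and mmu_circ_0000611 one of 15. Just outside it, mmu_circ_0000658 had 0 reads in 1 library and a lowest other count of 20, mmu_circ_0001700 one of 21 and mmu_circ_0000520 one of 23. The table gives a name and counts only, and no gene, position or sequence, so members are described by identifier.

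A circRNA is a closed ring of RNA that forms when the spliceosome joins the end of an exon back to the start of the same or an earlier exon. Without free ends, such rings resist the exonucleases that degrade linear RNA, and many of them are long-lived. Neurons and brain tissue are known for a high content of circRNAs, and a catalogued circRNA is one that earlier sequencing had already reported. A read is commonly assigned to a ring by the sequence across its back-splice junction, which the linear transcript of the same gene lacks.

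Brain RNA was compared between wild-type C57BL/6 mice (WT) and APP/PS1 mice, also labelled C57BL/6, which express APP695swe and PS1-dE9, at the ages of 6 and 9 months. The 4 groups were WT at 6 months, APP/PS1 at 6 months, WT at 9 months and APP/PS1 at 9 months, with 3 circRNA libraries each, numbered 1 to 3 as in their titles. No treatment is labelled in any group, and the labels give neither the promoter of the transgenes nor the sex, and they do not say whether a library came from 1 animal or a pool. Whether the 3 libraries of a group stem from different animals is not labelled, and the p-values therefore speak only of the spread among these samples, part of which may be technical. The tissue label reads brain while the extraction text names retinas. In the 12 long RNA libraries whose titles give the same groups and numbers, 8 neuronal markers summed to 1966 to 2209 FPKM per library (fragments scaled by transcript length and library size), and 10 photoreceptor and retinal markers to 2.84 to 4.31 FPKM, with 9 of the 10 under 1 FPKM in all 12 libraries. Snap25, a gene of neuronal vesicle release, was at 785 FPKM or more. This check could not be made in the circRNA libraries, whose names carry no gene.

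The circRNA libraries held 247998 to 654147 reads, of which members took 107423 to 280896. The largest library, WT 1 of 9 months, stood apart from the other 11. Its log2 levels over 986 members with reads in all 12 libraries and a mean of at least 10 reads had a mean Pearson r of 0.908 with the other libraries, against 0.952 to 0.961 for each of those. It held the highest of the 12 values for 283 of the 986 members and the lowest for 214, while no other library held more than 83 of the highest or 146 of the lowest. For 33 members its value lay under 0.25 times the median of the other libraries, a position that 10 member values took in the other 11 libraries together. Depth and this profile came together in 1 library, and the part of depth was not tested. Where leaving it out ended or made a call of a member, or moved a count at an unadjusted p by over 1.5 times, this is stated. It stands with the result or in the last section, in part without the value of that fit.

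**Figure D1:**
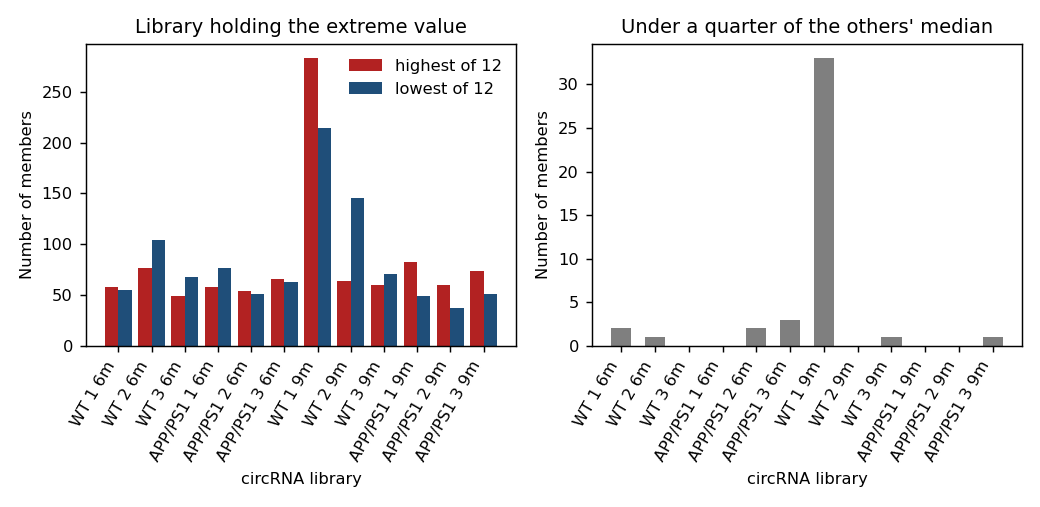
For each of the 12 circRNA libraries on the x axis, the left bars count the members whose highest or lowest value fell in that library, and the right bars count the members whose value was under 0.25 times the median of the other 11 libraries (986 members with reads in every library and a mean of at least 10 reads). WT 1 of 9 months holds 283 of the highest values, 214 of the lowest and 33 of the low departures.

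Members were abundant and were found in nearly every library. The median member had a mean of 128 CPM (the count scaled to the same total of circRNA reads in each library), and 5% of members lay under 11.96 and 5% above 1459 CPM. In reads, the median member had a mean of 50.04 per library. Of the 1182 members, 99 had a mean of 1000 CPM or more, 582 lay from 100 to under 1000, 451 from 10 to under 100 and 50 under 10. The 102 most abundant members made 50% of all member reads and 518 members made 90%. Reads were present in all 12 libraries for 1053 members (89.1%), and 50 of the other 129 were listed at 0 in just 1 library. The table holds no count of 1, so a listed 0 may stand for a count under a minimum of 2, and no limit or fold was taken from it. Per library, 1147 to 1163 members had reads, the fewest in WT 2 of 9 months, which was also the smallest library.

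The catalogued names took a far larger part of the reads than their number would give. Members were 7.53% of the rows of the table and took 42.2% (95% Wilson interval 42.1% to 42.4%) to 43.9% (43.8% to 44.1%) of the reads of a library, from APP/PS1 2 of 6 months to APP/PS1 2 of 9 months. These intervals cover counting error only, since reads were not tagged as molecules. Of the 100 circRNAs of highest mean CPM in the table, 84 were members. To compare levels without the rule on counts, all 1197 catalogued names were set against the 14493 others in each library. The median catalogued name lay 102 to 121 CPM above the median of the others, with a mean difference of 116 CPM (SD 5.0, n = 12 libraries, higher in 12 of 12, exact sign-flip permutation test, two-sided p = 0.000488, the smallest that 12 libraries can give). The share of listed circRNAs with reads was 96.8% to 98.1% among the catalogued and 75.9% to 91.6% among the others, a mean difference of 11.8 percentage points (SD 4.13, higher in 12 of 12 libraries, exact p = 0.000488). The shares among the others were lowest in the smallest library and highest in the largest, so that this difference ran from 20.9 points in WT 2 of 9 months to 5.95 points in WT 1 of 9 months. The same fixed lists were measured in each library, so a difference between the lists recurs in all 12. A p at the smallest possible value adds little to the values themselves. Both p-values therefore speak of these libraries and not of catalogued circRNAs as a class.

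**Figure D2:**
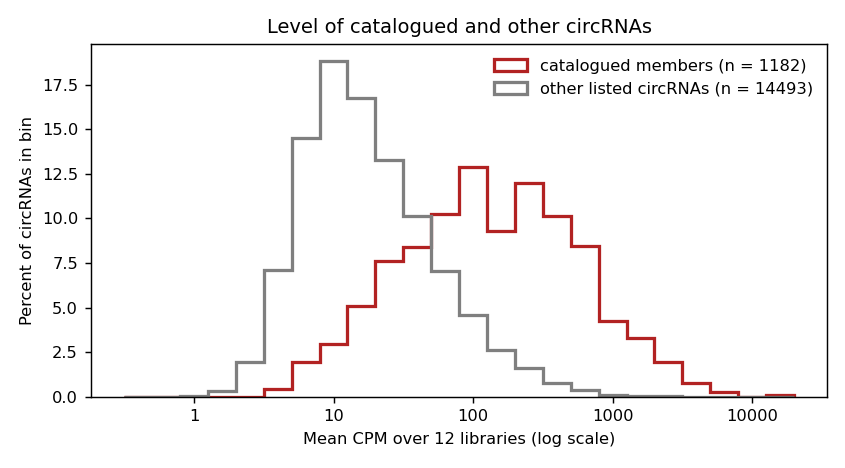
Share of circRNAs (percent per bin, y axis) by mean CPM over the 12 libraries (log x axis), for the 1182 members and the 14493 other listed circRNAs. The members' median is 128 CPM and that of the others 15.3 CPM, and the distributions overlap widely.

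The most abundant member was mmu_circ_0000057, which was also the most abundant circRNA of the whole table. In WT it lay at 12982, 13792 and 13559 CPM at 6 months and at 17132, 15512 and 14255 CPM at 9 months. In APP/PS1 it lay at 12936, 14275 and 14042 CPM at 6 months and at 14897, 13765 and 15601 CPM at 9 months. All 3 WT libraries of 9 months were above the 3 of 6 months, and the other comparisons overlapped. The change with age in WT was 0.24 log2 (SE 0.11) and was not called (edgeR adjusted p = 0.748).

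The second member in abundance was mmu_circ_0001605. Its values were 7114, 6757 and 8590 CPM in WT and 7028, 7143 and 9321 CPM in APP/PS1 at 6 months. At 9 months they were 8625, 6012 and 10119 CPM in WT and 6742, 7316 and 9424 CPM in APP/PS1. In each of the 4 groups library 3 was the highest. Library 3 was highest in all 4 groups for 14 of 1181 members (1.19%), library 2 for 14 (1.19%) and library 1 for 18 (1.52%). Over all circRNAs tested these shares were 1.29%, 1.02% and 1.14%, near those of members.

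The other 8 of the top 10 had means of 5788 CPM (mmu_circ_0001829), 5213 (mmu_circ_0001125), 4679 (mmu_circ_0000349), 4036 (mmu_circ_0001589), 3885 (mmu_circ_0000017), 3841 (mmu_circ_0000489), 3660 (mmu_circ_0000595) and 3607 CPM (mmu_circ_0001311). From mmu_circ_0001605 down, the ranges of neighbours in this order over the 12 libraries overlapped, and only mmu_circ_0000057 lay apart. The lengths of the rings are not given, so this is an order of reads and not of molecules. In mmu_circ_0000349 the 12 values ran from 4315 to 4977 CPM. In mmu_circ_0001125 WT 1 of 9 months lay alone at 7861 CPM, while the other 11 libraries ran from 4246 to 5370 CPM.

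In mmu_circ_0000489 the 3 APP/PS1 libraries of 6 months (3358, 3223 and 3133 CPM) lay under the 3 WT libraries of that age (3812, 4413 and 4581 CPM) and under the 3 APP/PS1 libraries of 9 months (4443, 3878 and 4346 CPM). WT at 9 months was spread, at 2698, 4258 and 3945 CPM. Its log2 change of −0.37 (SE 0.13) between the genotypes at 6 months and of 0.38 (SE 0.13) with age in APP/PS1 did not pass (edgeR adjusted p = 0.807 and 0.909). With age in APP/PS1 the reverse order was found in mmu_circ_0000017, at 4134, 4509 and 4259 CPM in APP/PS1 of 6 months and 3549, 3693 and 3232 CPM in APP/PS1 of 9 months (log2 −0.30, SE 0.11, adjusted p = 0.937). Its genotypes were also separate at both ages, in opposite order, with WT at 3488 to 3920 CPM at 6 months and at 3799 to 4175 CPM at 9 months. With age in APP/PS1, mmu_circ_0001589 went from 4175 to 4428 CPM to 3767 to 4059 CPM without overlap (log2 −0.15, adjusted p = 1), and mmu_circ_0001125 from 4246 to 4844 CPM to 5356 to 5370 CPM. In none of the 7 contrasts tested was a member of the top 10 called.

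**Figure D3:**
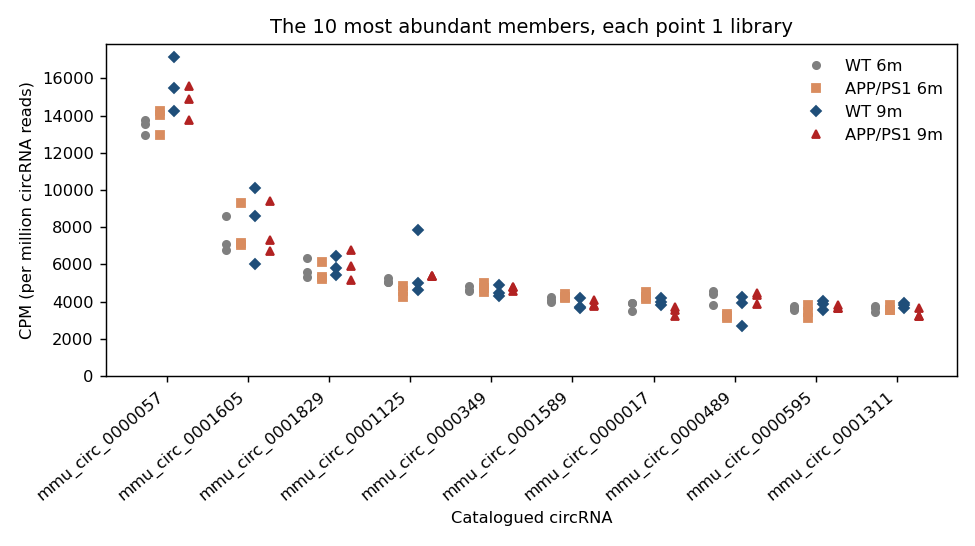
CPM (y axis) of the 10 most abundant members (x axis), with each point 1 library and the 4 groups side by side. The values of mmu_circ_0000057 lie between 12936 and 17132 CPM, and 1 library of WT at 9 months stands alone at 7861 CPM in mmu_circ_0001125.

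The spread between libraries was smaller at higher levels. The median within-group SD of log2 CPM was 0.77 for tested members under 10 CPM, 0.45 from 10 to under 100, 0.23 from 100 to under 1000 and 0.15 at 1000 CPM and above. In the same ranges the other circRNAs had 0.73, 0.52, 0.26 and 0.16, the last of 17 circRNAs. Among the 100 most abundant members the SD of log2 CPM over all 12 libraries had a median of 0.16. The smallest were 0.076 in mmu_circ_0001206, which ran from 1380 to 1599 CPM, 0.077 in mmu_circ_0001335 (1552 to 1790 CPM) and 0.080 in mmu_circ_0001566 (1847 to 2483 CPM).

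The 3 most variable of these 100 had SDs of 0.73, 0.69 and 0.54, and each varied in its own way. In mmu_circ_0001396 the low value came from 1 library, WT 1 of 9 months at 298 CPM, while the other 11 ran from 1001 to 2036 CPM. In mmu_circ_0000477 WT 1 of 9 months was again lowest at 440 CPM, with APP/PS1 1 of 6 months at 680 CPM and WT 2 of 9 months highest at 1782 CPM. In mmu_circ_0000239 WT was high and APP/PS1 low at 6 months, and both groups of 9 months held high and low libraries. It lay at 3246, 1903 and 3115 CPM in WT and at 1064, 983 and 999 CPM in APP/PS1 at 6 months. At 9 months it lay at 2807, 1121 and 910 CPM in WT and at 1041, 2382 and 2096 CPM in APP/PS1. The groups were separate at 6 months and overlapped at 9 months.

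Large steps between libraries were mostly those of a single library. Of 591 members with reads in all 12 libraries and a mean of at least 50 reads, 27 (4.57%) had a step of at least 2-fold between neighbouring values when the libraries were put in order, a rule chosen after the data were seen. In 25 of the 27 the step set 1 library below the other 11, and in 23 of these the library was WT 1 of 9 months. In mmu_circ_0000659 it was APP/PS1 2 of 6 months and in mmu_circ_0001209 APP/PS1 1 of 6 months. The remaining 2, mmu_circ_0000011 and mmu_circ_0001548, had 2 and 4 libraries above the step and are among the called members described with the comparisons. In none of the 27 did the step separate whole groups. Among 751 other circRNAs of the same depth, 42 (5.59%) had such a step, 20 of them with 2 or more libraries on each side.

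Members with consecutive identifier numbers were compared as a description, since the table gives no positions. Over the 12 libraries the log2 CPM of 233 consecutive pairs had a median Pearson r of 0.18, and 9 pairs (3.86%) were above 0.8, while 1.13% of all 174345 pairs of these 591 members were. The points share libraries and depth. The highest r among them, 0.92, was that of mmu_circ_0000452 and mmu_circ_0000453. Both were low in APP/PS1 2 of 6 months, at 128 and 203 CPM, against 663 and 754 CPM in APP/PS1 1 and 435 and 529 CPM in APP/PS1 3. Both were low in the 3 WT libraries of 9 months, at 137 to 182 CPM and 167 to 274 CPM.

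The question of the study is how the brain transcriptome of APP/PS1 mice differs from that of wild type at each age. The whole table was fitted with edgeR, and p-values were adjusted over the 14872 circRNAs that passed a filter on low counts, a call being an adjusted p under 0.05. The filter kept 1181 of the 1182 members. In bulk tissue, fewer cells of a type and less RNA per cell cannot be told apart. Comparisons that use the same group share its libraries, so their results are not independent.

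At 6 months 1 of 1181 members was called between the genotypes, mmu_circ_0000011, which was lower in APP/PS1. Over all circRNAs tested, 0.0471% were called. In WT it lay at 2069, 1818 and 250 CPM, and in APP/PS1 at 191, 272 and 259 CPM. At 9 months it lay at 226, 230 and 257 CPM in WT and at 241, 291 and 245 CPM in APP/PS1. WT 1 and WT 2 of 6 months were thus high, and WT 3 of 6 months lay within the range of the other groups, so that the groups overlapped. The change was −2.49 log2 (SE 0.44, edgeR adjusted p = 0.0441). It was called in 7 of 20 other settings (adjusted p from 1.25e-07 to 0.390), the largest change being −2.98 log2 without WT 3 of 6 months. Without WT 1 or WT 2 of 6 months, and in 7 of the other 10 fits with a library left out, it was not called, while without WT 1 of 9 months its adjusted p was 0.0261.

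Further members did not pass at 6 months. In mmu_circ_0001378 the values were 192, 170 and 232 CPM in WT and 392, 329 and 460 CPM in APP/PS1, with no overlap (log2 1.02, SE 0.22, edgeR adjusted p = 0.185). It was called in 4 of 20 other settings, by DESeq2, in the fit of the 6-month groups alone and without WT 1 or WT 2 of 9 months (adjusted p from 0.0209 to 0.598). In mmu_circ_0000433 they were 140, 91.6 and 97.0 CPM in WT and 207, 272 and 224 CPM in APP/PS1 (log2 1.12, adjusted p = 0.296). The high level of mmu_circ_0000239 in WT, given above, made a log2 change of −1.41 (SE 0.35, adjusted p = 0.296). It was called without WT 1 of 9 months and in the fit of the 6-month groups alone, and in 0 of the other 18 settings (adjusted p from 0.00347 to 0.838). Without APP/PS1 1 of 6 months mmu_circ_0001548 was called at 6 months. Summed striatal markers (8 of 9 genes found, none at 0 in all 12 libraries) ran from 423 to 475 FPKM in the long RNA libraries of WT at 6 months and from 354 to 378 in those of APP/PS1. Summed astrocyte markers (6 of 6 genes found, none at 0 in all 12 libraries) ran from 626 to 668 FPKM in WT and from 719 to 766 in APP/PS1. Over all 12 libraries Slc1a2 ran from 350 to 466 FPKM, Gfap from 52.8 to 149 and Gja1 from 63.5 to 77.1. Aqp4 ran from 24.0 to 29.9 FPKM, Slc1a3 from 101 to 105 and Aldh1l1 from 15.6 to 17.3. A sum need not hold for each of its genes. The part of either list in the circRNA results was not tested.

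Over all members at 6 months, 594 were higher and 587 lower in APP/PS1, with a median log2 change of 0.002 (0.04 over all circRNAs tested). At an unadjusted p under 0.05 were 71 members (6.01%, 40 higher and 31 lower), against 5.29% of all circRNAs tested (3.36% higher and 1.93% lower). This count was 111 (9.4%, against 5.98% of all) without WT 1 of 9 months and 121 (10.2%, against 5.74%) in the fit of the 6-month groups alone. The groups did not overlap in 17.2% of members and in 13% of all circRNAs. This share moved with level: it was 12.9% for members of 10 to under 100 CPM, 18.9% from 100 to under 1000 and 28.3% at 1000 CPM or more. Among the other circRNAs of those levels it was 11.8%, 16.9% and 29.4%, the last of only 17 circRNAs.

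**Figure D4:**
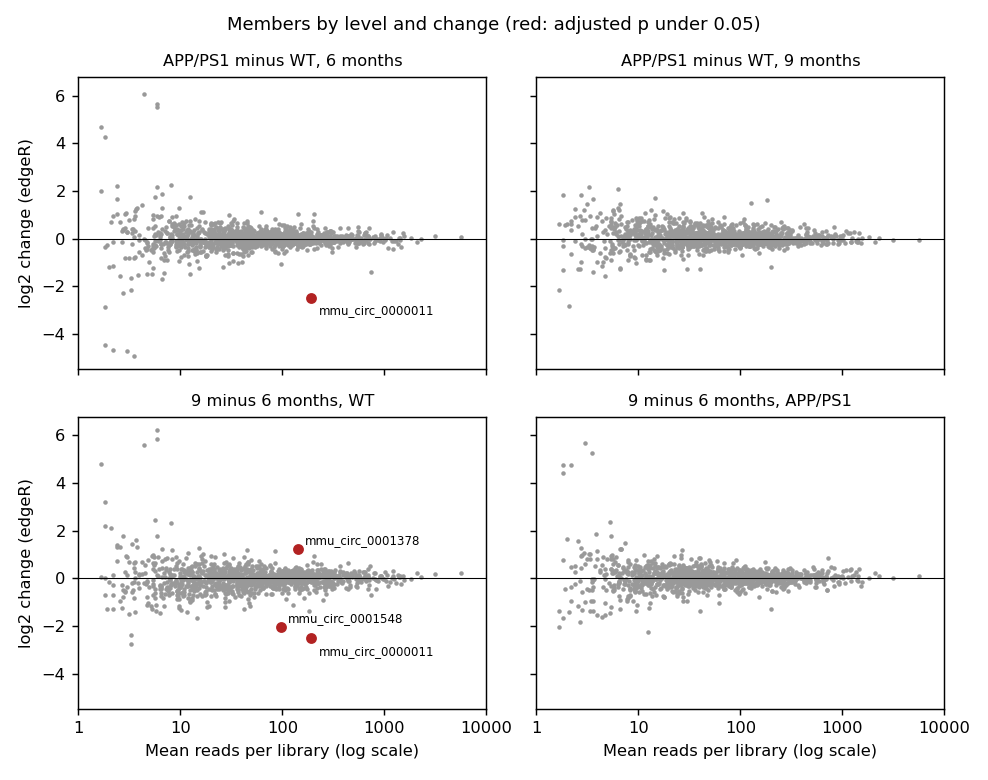
Log2 change by edgeR (y axis) against mean reads per library (log x axis) for the 1181 tested members in 4 comparisons, with members at an adjusted p under 0.05 in red. Changes spread widely at few reads, and the called members are mmu_circ_0000011 at 6 months, and mmu_circ_0001378, mmu_circ_0001548 and mmu_circ_0000011 with age in WT.

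At 9 months 0 of 1181 members were called between the genotypes by edgeR (0.00672% of all circRNAs tested), with 60 members (5.08%, 42 higher and 18 lower) at an unadjusted p under 0.05 against 4.44% of all (2.37% higher and 2.08% lower). That number was 147 (12.4%, against 6.07% of all) without WT 2 of 9 months, 129 (10.9%, against 6.43%) without WT 3 of 9 months, 30 (2.54%, against 3.07%) in the fit of the 9-month groups alone and 38 (3.22%, against 3.27%) by DESeq2. DESeq2 called 2 members, mmu_circ_0000453 and mmu_circ_0000598, and 4 of all circRNAs. In mmu_circ_0000453 the values were 167, 198 and 274 CPM in WT and 666, 616 and 681 CPM in APP/PS1, so that every APP/PS1 library was above every WT library. The change was 1.64 log2 (SE 0.30, edgeR adjusted p = 0.212, from 0.00132 to 0.766 over the other settings, called in 3 of 20, among them the fit without APP/PS1 2 of 6 months). Without WT 1 of 9 months it was 1.51 log2 (adjusted p = 0.464). In mmu_circ_0000598 the order was reversed, with 534, 758 and 719 CPM in WT and 458, 211 and 193 CPM in APP/PS1 (log2 −1.20, SE 0.24, adjusted p = 0.268, called without APP/PS1 1 of 9 months).

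Smaller differences without overlap were found in mmu_circ_0000464, at 109, 113 and 160 CPM in WT and 190, 277 and 243 CPM in APP/PS1 (log2 0.90, edgeR adjusted p = 0.518). They were also found in mmu_circ_0001848, at 349, 282 and 329 CPM in WT and 214, 206 and 171 CPM in APP/PS1 (log2 −0.70, adjusted p = 0.643). In all, 638 members were higher and 543 lower (median log2 0.03, and 0.008 over all circRNAs). Groups without overlap were found for 10.1% of members and 10.4% of all circRNAs. Of the marker lists, 3 were also separate between the genotypes at 9 months, each with all its genes found and none at 0 in all 12 libraries. Microglial markers (6 genes) summed to 115 to 132 FPKM in WT and 143 to 173 in APP/PS1. Choroid plexus markers (10 genes) summed to 312 to 356 FPKM in WT and 78.3 to 299 in APP/PS1. Pituitary markers (3 genes) summed to 3.88, 18.9 and 3.85 FPKM in WT 1, 2 and 3 and to 50.1, 19.8 and 237 FPKM in APP/PS1 1, 2 and 3. The high end was thus 1 library, and the nearest values of the genotypes were 18.9 and 19.8 FPKM. Over all 12 libraries Ttr, of the choroid plexus list, ran from 1.34 to 325 FPKM, and its other genes stayed at 7.02 or less. Of the pituitary list Pomc reached 228 FPKM, Gh 31.1 and Prl 5.18. The part of these lists in the circRNA results was not tested.

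Over both ages 0 members were called between the genotypes by edgeR (0% of all circRNAs tested). At an unadjusted p under 0.05 were 49 members (4.15%, 29 higher and 20 lower), against 4.65% of all (2.84% higher and 1.81% lower). Without WT 3 of 9 months, 92 members (7.79%, against 5.98% of all) were at that p. DESeq2 called 1 member, mmu_circ_0001848, and 6 of all circRNAs. At 6 months this member lay at 321, 305 and 370 CPM in WT and at 180, 210 and 249 CPM in APP/PS1. All 6 APP/PS1 libraries of the study were therefore below all 6 WT libraries, a separation found in 3 of 1181 members (0.254%) and in 0.222% of all circRNAs. The change was −0.66 log2 (SE 0.14, edgeR adjusted p = 0.2002, from 0.0273 to 0.67 over the other settings). The other members of smallest p were mmu_circ_0000452 (log2 0.87, edgeR adjusted p = 0.904) and mmu_circ_0000453 (0.74, 0.904), higher, and mmu_circ_0000011 (−1.18, 0.833), lower, each with overlapping groups. The higher pair was called without APP/PS1 2 of 6 months, and mmu_circ_0000011 without WT 3 of 6 months.

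With age in WT, from 6 to 9 months, 3 of 1181 members were called, 1 higher and 2 lower, against 0.0605% of all circRNAs tested. The higher one, mmu_circ_0001378, went from the 170 to 232 CPM given above to 532, 302 and 517 CPM, with no overlap (log2 1.22, SE 0.22, edgeR adjusted p = 0.0424). The lower ones were mmu_circ_0001548 and mmu_circ_0000011. In mmu_circ_0001548 the WT libraries lay at 532, 478 and 567 CPM at 6 months and at 97.8, 149 and 135 CPM at 9 months, with no overlap (log2 −2.05, SE 0.36, adjusted p = 0.0424). In APP/PS1 it lay at 481, 137 and 135 CPM at 6 months and at 139, 189 and 141 CPM at 9 months. The high level was thus that of the 3 WT libraries of 6 months and of APP/PS1 1 of 6 months. For mmu_circ_0000011 the change was −2.52 log2 (SE 0.45, adjusted p = 0.0424) and again rested on WT 1 and WT 2 of 6 months.

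None of the 3 was called without WT 1 of 9 months (edgeR adjusted p = 0.114 for each). Of the 12 fits with a library left out, all 3 were called only in those without APP/PS1 2 or APP/PS1 3 of 6 months. Over the other settings the adjusted p of mmu_circ_0001378 ran from 0.00128 to 0.228 and that of mmu_circ_0001548 from 8.9e-05 to 0.143. In the long RNA libraries, 10 choroid plexus markers, all found and none at 0 in all 12 libraries, summed to 6.21, 297 and 13.5 FPKM in WT 1, 2 and 3 of 6 months and to 312, 347 and 356 FPKM at 9 months. Ttr, 1 of these 10, ran from 1.34 to 325 FPKM over all 12 libraries. The summed striatal markers ran from 341 to 373 FPKM in WT at 9 months, below the 423 to 475 FPKM of 6 months. The part of either in the circRNA results was not tested.

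**Figure D5:**
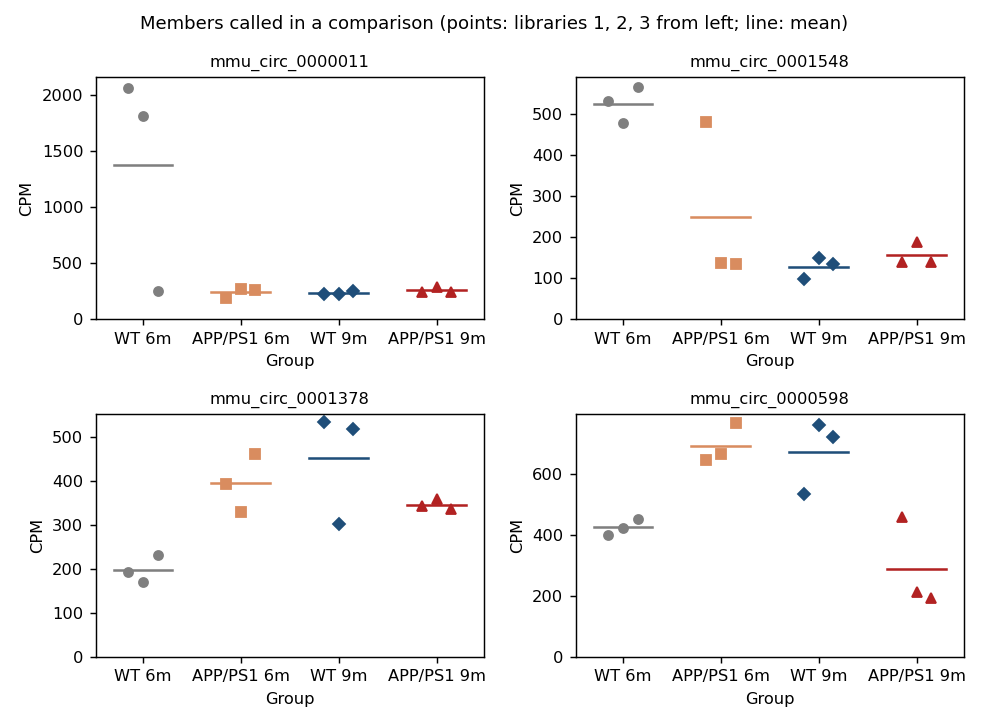
CPM (y axis) in each library of the 4 groups (x axis) for the 4 members called in any contrast, with points for libraries 1 to 3 from left to right and a line at the group mean. In mmu_circ_0000011 the libraries at 2069 and 1818 CPM stand above the other 10, and in mmu_circ_0001548 the 3 WT libraries of 6 months and 1 APP/PS1 library stand above the other 8.

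The next member with age in WT by p among those higher was mmu_circ_0000205, at 640, 1068 and 835 CPM at 6 months and 1107, 1512 and 1286 CPM at 9 months (log2 0.63, edgeR adjusted p = 0.328). In all, 604 members were higher and 577 lower (median log2 0.009, and 0.02 over all circRNAs). At an unadjusted p under 0.05 were 104 members (8.81%, 50 higher and 54 lower), against 6.28% of all (3.51% higher and 2.77% lower). There were 169 (14.3%, against 7.65% of all) without WT 2 of 9 months, 159 (13.5%, against 7.6%) without WT 3 of 9 months, 69 (5.84%, against 5.61%) without WT 2 of 6 months and 63 (5.33%, against 4.19%) in the fit of the WT groups alone. Groups without overlap were found for 11.3% of members and 11.1% of all. At the unadjusted p in the fit of all 12 libraries, members of 10 to under 100 CPM made 5.99%, those from 100 to under 1000 made 10.7% and those of 1000 CPM or more 13.1%. Among the other circRNAs of those levels these were 5.25%, 9.03% and 11.8%, the last of only 17 circRNAs. DESeq2 called 7 members here, among them the 3 called by edgeR, and 31 of all circRNAs.

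With age in APP/PS1 0 members were called by edgeR (0.0134% of all circRNAs tested), with 66 members (5.59%, 37 higher and 29 lower) at an unadjusted p under 0.05 against 4.42% of all (2.04% higher and 2.37% lower). Without WT 1 of 9 months there were 117 (9.91%, against 5.41% of all), and in the fit of the APP/PS1 groups alone 137 (11.6%, against 5.98%). DESeq2 called 1 member, mmu_circ_0000598, and 12 of all circRNAs. This member was at 644, 665 and 765 CPM at 6 months and at the 193 to 458 CPM given above at 9 months (log2 −1.27, SE 0.24, edgeR adjusted p = 0.109). Without WT 1 of 9 months, or without APP/PS1 1 of 9 months, edgeR called it too (adjusted p from 0.000279 to 0.514 over the other settings, called in 3 of 20). Of few reads, mmu_circ_0000500 lay at 105, 81.7 and 43.2 CPM at 6 months and at 32.1 and 17.3 CPM in APP/PS1 1 and 3 of 9 months, and was listed at 0 in APP/PS1 2 (adjusted p = 0.498). The higher members of smallest p were mmu_circ_0001203, from 158, 172 and 196 CPM to 343, 260 and 292 CPM (log2 0.76, adjusted p = 0.791), and mmu_circ_0001089, from 55.3, 37.6 and 35.6 CPM to 80.3, 78.1 and 86.6 CPM (log2 0.93, adjusted p = 0.806).

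The APP/PS1 groups of 6 and 9 months did not overlap in 19.6% of members and in 13.8% of all circRNAs. Oligodendrocyte markers (6 of 6 genes found, none at 0 in all 12 libraries) summed to 688 to 731 FPKM at 6 months and 759 to 815 at 9 months in APP/PS1. Pituitary markers (Pomc at up to 228 FPKM) summed to 1.75, 14.5 and 7.86 FPKM and then to 50.1, 19.8 and 237 FPKM in APP/PS1 1, 2 and 3. Microglial markers were at 133 to 143 FPKM and then at 143 to 173 FPKM, and the part of these lists in the circRNA results was not tested. As between the genotypes at 6 months, the share of members without overlap moved with level, from 14.4% of members of 10 to under 100 CPM to 38.4% of those of 1000 CPM or more. The other circRNAs of those levels had 12.4% and 41.2%, the latter of 17 circRNAs. The spread of the WT libraries, which the fit shares with these groups, did not enter this count.

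Over both genotypes 0 members were called with age by edgeR (0.00672% of all circRNAs tested). At an unadjusted p under 0.05 were 87 members (7.37%, 44 higher and 43 lower), against 5.78% of all (3.06% higher and 2.72% lower). DESeq2 called 3 members and 26 of all circRNAs. The lower members of smallest p were mmu_circ_0001548 (log2 −1.36, edgeR adjusted p = 0.0988) and mmu_circ_0001151 (log2 −0.63, adjusted p = 0.106). In WT mmu_circ_0001151 lay at 735, 723 and 779 CPM at 6 months and at 428, 375 and 370 CPM at 9 months. In APP/PS1 it lay at 788, 833 and 785 CPM and then at 755, 443 and 690 CPM, so that the groups of 9 months were lower in both genotypes. Without WT 1 of 9 months it was called (over the other settings the adjusted p ran from 0.00496 to 0.284). The higher members were mmu_circ_0001688 (log2 0.89, adjusted p = 0.217) and mmu_circ_0001471 (log2 0.91, adjusted p = 0.244). In WT mmu_circ_0001688 went from 126, 112 and 99.9 CPM to 157, 165 and 423 CPM and mmu_circ_0001471 from 60.6, 64.4 and 64.7 CPM to 90.2, 169 and 180 CPM. In APP/PS1 the ages overlapped for both, with 163, 175 and 244 CPM and then 233, 313 and 354 CPM in mmu_circ_0001688. The values of mmu_circ_0001471 there were 127, 53.0 and 130 CPM and then 179, 116 and 178 CPM.

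The genotype effect differed between the ages in 1 of 1181 members, mmu_circ_0000598 (log2 −1.93, SE 0.34, edgeR adjusted p = 0.0433), against 0.0403% of all circRNAs tested. In WT it lay at 400, 421 and 453 CPM at 6 months and at 534, 758 and 719 CPM at 9 months, and in APP/PS1 at 644 to 765 CPM and then at 193 to 458 CPM. The genotypes did not overlap at either age, with APP/PS1 higher at 6 months (log2 0.73) and lower at 9 months (log2 −1.20). In the fit of all 12 libraries neither was called. The 6-month effect was called in the fit of the 6-month groups alone. The 9-month effect was called by DESeq2 and without APP/PS1 1 of 9 months. The difference between the ages was called in 6 of 19 other settings (adjusted p from 0.000107 to 0.147), and without WT 1 of 9 months its adjusted p was 0.0132. At an unadjusted p under 0.05 were 86 members (7.28%, 53 with a positive and 33 with a negative difference) against 5.99% of all (2.65% and 3.34%), and 131 (11.1%, against 6.99%) without WT 2 of 9 months. The members of next smallest p were mmu_circ_0001241 (log2 1.34, adjusted p = 0.145), mmu_circ_0000453 (1.79, 0.244) and mmu_circ_0001378 (−1.41, 0.171).

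In mmu_circ_0001241 the values were 440, 339 and 288 CPM in WT and 260, 232 and 234 CPM in APP/PS1 at 6 months. At 9 months they were 168, 246 and 166 CPM in WT and 305, 367 and 327 CPM in APP/PS1. The genotypes were separate at both ages, in opposite order, as in mmu_circ_0000598.

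The share of all circRNA reads that fell on members was compared as a single value per library. It was 43.5% ± 0.0798 (SD, n = 3) in WT and 42.5% ± 0.437 in APP/PS1 at 6 months, and 43.3% ± 0.312 and 43.7% ± 0.230 at 9 months. Between all 6 APP/PS1 and all 6 WT libraries it differed by −0.263 percentage points (exact permutation test, two-sided, p = 0.411, adjusted over 4 share tests 0.548), and between 9 and 6 months by 0.461 points (exact p = 0.145, adjusted 0.29). Taken over all 1197 catalogued names, the latter difference was −0.0199 points. At 6 months the 3 APP/PS1 libraries lay below the 3 WT libraries and in APP/PS1 the 3 libraries of 9 months lay above those of 6 months, differences of −0.946 and 1.14 points (exact p = 0.1 for each, the smallest that 3 against 3 allows). The members were chosen by read counts in these same libraries, so none of these p-values is free of that choice. The 3 against 3 differences were not taken over all catalogued names. The top 10 members took 12.5% to 14.6% of member reads, the most in WT 1 of 9 months. This share differed by −0.212 points between the genotypes (exact permutation p = 0.591, adjusted 0.591) and by 0.476 points between the ages (exact p = 0.106, adjusted 0.29). Over all catalogued names the top 10 differed by 0.281 points between the genotypes and by −0.745 points between the ages, the opposite signs, and without WT 1 of 9 months the members' top 10 differed by 0.0467 points between the genotypes. None of the 4 differences passed.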

How the data were processed

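The 12 circRNA libraries and, for tissue markers only, the 12 long RNA libraries were used. The deposited circRNA table holds read counts and, per the file headers, columns named tpm, which match each count scaled to counts per the same library total and are written as CPM. The authors deposited the mRNA values as FPKM per transcript, which were summed per gene. In the submitters' processing notes the tools include Bowtie 0.12.2 and the build is mm8, both without a stated role. Which circRNA caller was used, and with which minimum, is not given in the sources used here. Levels are CPM of the library's circRNA reads.

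CircRNAs that reached 2 reads in 3 or more libraries and a total of 20 reads were fitted with edgeR 4.0.16 (quasi-likelihood, TMM, R 4.3.3), in 1 model of 4 group means over 12 libraries, with Benjamini-Hochberg adjustment. The SE is the log2 change divided by the root of F. DESeq2 1.42.0 and limma 3.58.1 were alternatives, beside other scalings, filters, a replicate block and leaving out each library. The edgeR fit was tested on simulated counts. Members, lists and tests were chosen with earlier results of these data known. Named members are the 10 of highest mean CPM, per contrast the 2 higher and 2 lower of smallest p (mean of at least 10 reads; fewer than 5 were called in each), the 3 most and least variable of the top 100, and those nearest the limit on zeros. Members shown for large steps or consecutive numbers were chosen after their values were seen. Same-group libraries differed by more than sampling noise (chi-square per degree of freedom 1.96 to 5.44).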

Additional observations from a re-analysis of the deposited data

Results flagged for a closer look

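The genotype effect of mmu_circ_0000598 differed between the ages, with a log2 difference of −1.93 (edgeR interaction, adjusted p = 0.0433). At 6 months all APP/PS1 libraries were above all WT libraries of that age, and at 9 months all were below those of that age. With each library left out in turn, 2 of 12 fits called it (adjusted p from 0.000107 to 0.127). The libraries left out in these 2 were WT 1 of 9 months and APP/PS1 1 of 9 months.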

How the results depend on the processing

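The median member had 50.04 reads per library, and members of 10 to under 100 CPM had a median within-group SD of 0.45 log2. No member table names a gene, and 1 library, WT 1 of 9 months, carried many extreme values. Counts of called members below are in the order genotype at 6 months, genotype at 9 months, genotype over both ages, age in WT, age in APP/PS1, age over both genotypes and interaction, against 1, 0, 0, 3, 0, 0 and 1. Over all circRNAs tested the main fit called 7, 1, 0, 9, 2, 1 and 6. DESeq2 gave 2, 2, 1, 7, 1, 3 and 4 members, against 19, 4, 6, 31, 12, 26 and 17 of all circRNAs. Scaling by total reads only left 0 members (5 of all) for the interaction. A filter of 10 reads or more in 6 or more libraries, and limma on log2(CPM + 1), each left 0 at 6 months, 0 with age in WT and 0 for the interaction. Of all circRNAs the filter left 1, 0 and 1 there, and limma 1, 1 and 4. Fits of only the groups compared called 4 members at 6 months (23 of all circRNAs) and 1 at 9 months (2 of all). With all catalogued names, 2 were called at 6 months, the added one being mmu_circ_0000334. Leaving out 1 library gave 0 to 3, 0 to 2, 0 to 2, 0 to 4, 0 to 1, 0 to 1 and 0 to 2 called members. Of all circRNAs these fits called 1 to 17, 1 to 5, 0 to 6, 1 to 16, 1 to 11, 0 to 10 and 4 to 11. The interaction was also called for mmu_circ_0000011 without WT 3 of 6 months, mmu_circ_0001548 without APP/PS1 1 of 6 months, mmu_circ_0000239 without WT 1 of 9 months and mmu_circ_0001378 without WT 2 of 9 months.

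The labels do not say whether libraries of the same number belong together. Deviations of same-numbered libraries had correlations of −0.0573 to 0.0614, with 0 of 18 pairs over 0.1, and 4 of 12 libraries correlated best with their own number. Such correlations cannot show a shared factor that moves few circRNAs, so a pairing by number was not settled. With the replicate block 0 members were called at 6 months, 2 with age in WT and 1 for the interaction. Of all circRNAs 6, 11 and 10 were.

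Differences in read shares were not past the threshold, and 4 of their alternative values changed sign. With all catalogued names the share on catalogued circRNAs differed by −0.0199 points between the ages, and the share of the top 10 by 0.281 points between the genotypes and −0.745 points between the ages. Without WT 1 of 9 months the top 10 differed by 0.0467 points between the genotypes. Leaving out 1 library gave −0.426 to −0.0799 and 0.298 to 0.569 points for the member share by genotype and age, and −0.371 to 0.0467 and 0.243 to 0.582 points for the top 10. The difference of catalogued from other names ran from 115 to 117 CPM and from 11.03 to 12.4 percentage points. The 5 called results had 99 alternative values, of which 40 kept the call and 59 lost it. The 23 named results that were not called had 448, of which 28 gained a call. None of the 547 changed sign. The cause of these changes was not tested.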
